A study of Mus musculus with 7 samples.

Results

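The expression of 9 genes for enzymes of nucleotide synthesis and of the folate cycle was compared between tumors that grew from NM1 KO cells and tumors that grew from KO+NM1 cells. The genes were Tk1, Tyms, Rrm1, Rrm2, Umps, Shmt1, Shmt2, Mthfd1 and Mthfd2, matched by their GENCODE M21 symbol, and all 9 were found among the 46603 Ensembl genes of the count tables and passed the filter on low counts. KO cells are mouse embryonic fibroblasts (MEFs) from which nuclear myosin 1 (NM1), an isoform of Myo1c, was deleted by CRISPR/Cas9. KO+NM1 cells were made from these KO cells with a lentivirus that carries the NM1 coding sequence with HA and V5 tags, selected with neomycin and tested as single clones, so both groups carry the deletion. The cells were injected into female Balb/c nude mice, which lack T cells but keep their other host cells, at 16 weeks of age, and the labels place the end of the experiment at day 30. No tumor of wild-type cells was sequenced. The labels describe 1 tumor of each kind cut into 4 pieces, of which 3 KO pieces and 4 KO+NM1 pieces were sequenced. Replicates are therefore pieces, and p-values measure how far pieces spread, not how far mice do, where a condition is 1 tumor.

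The count tables held 24088309 to 28326568 reads a piece, and values are given as CPM, the reads of a gene relative to the TMM-scaled library size. A count of 0 allows up to 3 counts, or 0.0991 to 0.148 CPM, a limit that covers counting error only. Genes of the mitochondrial genome made up 1.81% to 2.14% of the reads in KO and 5.11% to 18.5% in KO+NM1. The targeted gene Myo1c, at 303 ± 12.1 CPM (SD, n = 3) in KO, stood at 408 ± 23.1 CPM (SD, n = 4) in KO+NM1. Its log2 fold change was -0.43 (standard error 0.13, edgeR adjusted p = 0.031), which missed the threshold without KO piece 1, 2 or 3 or KO+NM1 piece 2 (edgeR adjusted p = 0.0508, 0.072, 0.0647 and 0.062). With library size as the only scaling it was -0.25 (edgeR adjusted p = 0.297). The gene count does not tell NM1 from the other isoforms. All 10 fibroblast markers examined (among them Col1a1, Vim and Pdgfrb) had counts in every piece. Their summed level was 9815 to 15755 CPM in the KO pieces and 4163 to 15299 CPM in the KO+NM1 pieces. The sums hide opposite changes of single markers. At an edgeR adjusted p under 0.05, 1 was higher in KO (Vim) and 4 lower (Pdgfrb, Pdgfra, Lum and Dcn). The other 5 did not pass, and the median log2 fold change was -0.71. The pieces also differed in other cell types. The summed level of 10 skeletal muscle markers was 2504 to 19913 CPM in the KO pieces and 7.61 to 25.8 CPM in the KO+NM1 pieces, that of 10 white adipocyte markers 118 to 310 CPM and 4770 to 34996 CPM, that of 8 macrophage markers 1003 to 1158 CPM and 292 to 425 CPM, and that of 6 endothelial markers 178 to 204 CPM and 942 to 1300 CPM. KO+NM1 piece 1 stood apart from the rest of its group, with 6293 CPM for 8 B and plasma cell markers where pieces 2 to 4 had 283 to 332 CPM and the KO pieces 158 to 250 CPM. In bulk tissue, fewer cells of a type and less RNA per cell cannot be told apart, and injected and host cells are counted together.

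Cells that copy their DNA need a supply of deoxynucleotides, and the enzymes of this supply are among the best known genes of S phase. Ribonucleotide reductase, built from the large subunit Rrm1 and the small subunit Rrm2, turns ribonucleotides into deoxyribonucleotides. Thymidylate synthase (Tyms) makes dTMP from dUMP with a methyl group from the folate pool, and cytosolic thymidine kinase (Tk1) makes dTMP from salvaged thymidine. Umps carries out the last steps of de novo UMP synthesis. The carbon units come largely from serine through serine hydroxymethyltransferase, as Shmt1 in the cytosol and Shmt2 in mitochondria, and are passed between folate forms by Mthfd1 in the cytosol and Mthfd2 in mitochondria.

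All coordinates are on GRCm38. Tk1 (ENSMUSG00000025574) lies on chromosome 11 from 117815526 to 117826092 on the minus strand, Tyms (ENSMUSG00000025747) on chromosome 5 from 30058202 to 30073617 on the minus strand, and Umps (ENSMUSG00000022814) on chromosome 16 from 33954782 to 33967038 on the minus strand. Rrm1 (ENSMUSG00000030978) lies on chromosome 7 from 102441695 to 102469771 and Rrm2 (ENSMUSG00000020649) on chromosome 12 from 24708241 to 24714146, both on the plus strand. Shmt1 (ENSMUSG00000020534) lies on chromosome 11 from 60788104 to 60811718 and Shmt2 (ENSMUSG00000025403) on chromosome 10 from 127517123 to 127522444, both on the minus strand. Mthfd1 (ENSMUSG00000021048) lies on chromosome 12 from 76255298 to 76319803 on the plus strand, and Mthfd2 (ENSMUSG00000005667) on chromosome 6 from 83305691 to 83325908 on the minus strand. Tk1, Shmt1, Shmt2, Mthfd1 and Umps share 32 to 213 exonic bases with a gene on the opposite strand, at most 6.11% of their exonic bases, and the strand option of the counting was not stated. A transcript of another gene matched at least 200 bases at 95% identity or more for Rrm2 (1 gene, 419 bases), Tyms (18 genes, up to 361 bases) and Umps (its antisense gene).

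Many genes of this kind are known to be transcribed together in dividing cells, and the RefSeq promoters of the 9 (GRCm38.p6, 250 bases before to 50 bases after the start, 1 entry for each of the 9 genes) were searched on both strands for short motifs. The CCAAT box (CCAAT) was present in 5 of the 9 windows (Rrm1, Rrm2, Shmt1, Mthfd1 and Mthfd2), against 37.4% of the 32817 promoters in the table. The GC box (GGGCGG) was present in 6 (Tk1, Tyms, Rrm2, Shmt1, Mthfd1 and Umps), against 35.6%. The E-box (CACGTG) was found only in Tyms, against 7.15% of all promoters, and the cell cycle element TTTGAA only in Umps, against 17.9%. The E2F letters TTTCGCGC, TTTGGCGC, TTTCCCGC and TTTGCCGC were in none of the 9 windows and in 2.26% of all promoters, and the ATF4 letters TGATGNAA in none and in 3.97%. Only these exact letters were searched, so shorter or looser forms of either site would have been missed. Apart from a pair of GC boxes of Shmt1 that share 1 base, none of these matches overlapped. A match is a description of letters and no evidence of binding. The promoters shown here are those of both subunits of ribonucleotide reductase, with CCAAT boxes in capitals on either strand (ATTGG on the minus strand), of the folate enzymes Mthfd2, which holds 3 of them, and Shmt1, and of Tyms with its E-box in capitals. Each is the nearest stretch of 120 bases before the RefSeq start that lies outside annotated exons, which ends 13 bases short of the start for Rrm2 and 2 bases short for Mthfd2.
Rrm1, chr7:102441575-102441694, plus strand: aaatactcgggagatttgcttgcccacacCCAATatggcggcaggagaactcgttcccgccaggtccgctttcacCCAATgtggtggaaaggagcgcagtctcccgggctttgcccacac
Rrm2, chr12:24708121-24708240, plus strand: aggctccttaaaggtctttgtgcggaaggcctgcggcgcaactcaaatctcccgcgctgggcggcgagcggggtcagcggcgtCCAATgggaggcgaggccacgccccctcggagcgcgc
Mthfd2, chr6:83317607-83317726, minus strand: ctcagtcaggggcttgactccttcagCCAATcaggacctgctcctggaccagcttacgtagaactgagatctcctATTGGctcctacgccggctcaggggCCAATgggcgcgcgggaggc
Shmt1, chr11:60811266-60811385, minus strand: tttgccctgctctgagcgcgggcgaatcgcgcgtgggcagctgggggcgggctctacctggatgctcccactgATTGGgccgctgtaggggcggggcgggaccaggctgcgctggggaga
Tyms, chr5:30073626-30073745, minus strand: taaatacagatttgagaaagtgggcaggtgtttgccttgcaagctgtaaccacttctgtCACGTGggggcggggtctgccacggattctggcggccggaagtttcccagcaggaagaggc

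For each of the 9 genes the lowest KO piece exceeded the highest KO+NM1 piece. Of the 16887 genes tested, 30.5% had every KO piece above and 26.4% had every KO piece below. In edgeR's quasi-likelihood test with Benjamini-Hochberg adjustment, 8 of the 9 passed an adjusted p of 0.05 as higher and 0 as lower, where 25.7% of all genes tested were called higher and 24.5% lower. With a change of at least 2-fold added, 7 were higher and 0 lower, against 17.1% and 20.3% of all genes. The gene that missed the adjusted p was Mthfd2, and the gene that missed 2-fold was Mthfd1. Their log2 fold changes ran from 0.86 for Mthfd1 to 4.02 for Rrm2, with a median of 2.72, while the median of all genes tested was -0.0017. The summed level of the 9 genes was 1078 to 1269 CPM in the KO pieces, 301 CPM in KO+NM1 piece 1 and 169 to 172 CPM in KO+NM1 pieces 2 to 4.

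**Figure D1:**
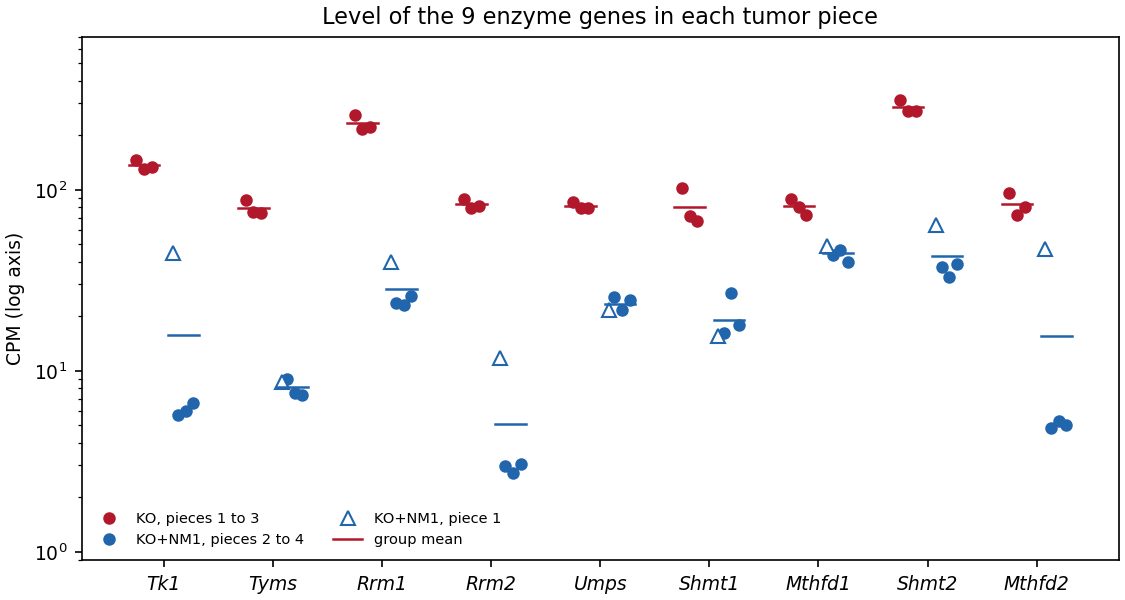
CPM on a log axis of the 9 genes in the 3 KO pieces (red) and the 4 KO+NM1 pieces (blue), with piece 1 of KO+NM1 as an open triangle and the group means as bars. The KO pieces lay above all KO+NM1 pieces for every gene, and the open triangle lay far above the other KO+NM1 pieces for Tk1 (44.5 CPM), Rrm2 (11.7 CPM) and Mthfd2 (47.0 CPM).

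Among the enzymes that supply deoxynucleotides, Rrm2 showed the largest change. It had 88.6, 79.0 and 81.5 CPM in KO pieces 1 to 3 and 11.7, 2.97, 2.72 and 3.04 CPM in KO+NM1 pieces 1 to 4. The KO pieces were close to each other, and KO+NM1 piece 1 was 4.02 times the mean of the other KO+NM1 pieces. The log2 fold change of Rrm2 was 4.02 (standard error 0.55, edgeR adjusted p = 0.00176). Its partner Rrm1 had 258, 217 and 223 CPM in the KO pieces and 40.0, 23.8, 23.1 and 25.7 CPM in the KO+NM1 pieces. The gap between the groups was wide for Rrm1 too, and KO+NM1 piece 1 was again the highest of its group. Its log2 fold change was 3.05 (standard error 0.22, edgeR adjusted p = 0.000296).

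Tyms had 88.3, 75.6 and 74.1 CPM in the KO pieces and 8.72, 9.03, 7.51 and 7.32 CPM in the KO+NM1 pieces. It was the most even of the 4 deoxynucleotide genes in the KO+NM1 tumor, and piece 1 lay within the range of the others. Tyms rose by 3.28 on the log2 scale with the small standard error of 0.14 (edgeR adjusted p = 0.000185). Tk1 had 147, 130 and 133 CPM in the KO pieces and 44.5, 5.70, 6.03 and 6.62 CPM in the KO+NM1 pieces. KO+NM1 piece 1 was thus 7.27 times the mean of pieces 2 to 4, and reached 32.5% of the KO mean. Tk1 rose by 3.12 on the log2 scale (standard error 0.78, edgeR adjusted p = 0.0167). Without KO piece 1 it no longer passed (2.96, edgeR adjusted p = 0.052), and without KO+NM1 piece 1 it was 4.35 (standard error 0.10, edgeR adjusted p = 3.48e-06). Umps, of the de novo pyrimidine pathway, had 86.1, 79.2 and 79.3 CPM in the KO pieces and 21.6, 25.5, 21.6 and 24.6 CPM in the KO+NM1 pieces. Both groups were tight and well apart. Umps rose by 1.80 on the log2 scale (standard error 0.12, edgeR adjusted p = 0.000229).

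Of the folate enzymes, mitochondrial Shmt2 had 314, 273 and 272 CPM in the KO pieces and 63.6, 37.6, 32.8 and 39.1 CPM in the KO+NM1 pieces. The KO pieces were well above, and KO+NM1 piece 1 was 1.74 times the mean of pieces 2 to 4. Its log2 fold change was 2.72 (standard error 0.24, edgeR adjusted p = 0.000472). Cytosolic Shmt1 had 102, 71.3 and 67.6 CPM in the KO pieces and 15.5, 16.1, 27.0 and 17.9 CPM in the KO+NM1 pieces. Here piece 3, not piece 1, was the highest KO+NM1 piece, and KO piece 1 stood above the other KO pieces. The log2 fold change of Shmt1 was 2.07 (standard error 0.25, edgeR adjusted p = 0.00107). Mthfd1, the cytosolic enzyme with several activities on folate, had 89.4, 80.8 and 72.4 CPM in the KO pieces and 48.7, 43.7, 46.3 and 40.0 CPM in the KO+NM1 pieces. Its groups did not overlap but lay closest together of the 9 genes. It rose by 0.86 on the log2 scale (standard error 0.13, edgeR adjusted p = 0.0021).

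Mitochondrial Mthfd2, which is low in most adult tissues and high in embryonic and tumor cells, had 96.2, 72.6 and 80.8 CPM in the KO pieces and 47.0, 4.84, 5.29 and 5.02 CPM in the KO+NM1 pieces. KO+NM1 pieces 2 to 4 were almost equal, and piece 1 was 9.31 times their mean and 56.5% of the KO mean. The log2 fold change of 2.42 (standard error 0.88) did not pass (edgeR adjusted p = 0.0585). Without KO+NM1 piece 1 it was 3.92 (standard error 0.13, edgeR adjusted p = 4.53e-06). With that piece left out all 9 genes were called higher. More genes passed in general in that setting, with 5957 of 16617 called higher against 4345 of 16887 with all pieces. Mthfd1l, the mitochondrial formate-producing enzyme that acts after Mthfd2, had the same arrangement, with 63.8, 54.6 and 54.2 CPM in the KO pieces and 40.5, 3.62, 2.87 and 5.18 CPM in the KO+NM1 pieces. Its log2 fold change was 2.14 (standard error 0.94, edgeR adjusted p = 0.0993), and 3.76 without KO+NM1 piece 1 (standard error 0.21, edgeR adjusted p = 1.48e-05). The B and plasma cell markers and the proliferation markers described here were also highest in that piece within the KO+NM1 group, and their part in the levels of Tk1, Rrm2, Mthfd2 and Mthfd1l was not tested.

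**Figure D2:**
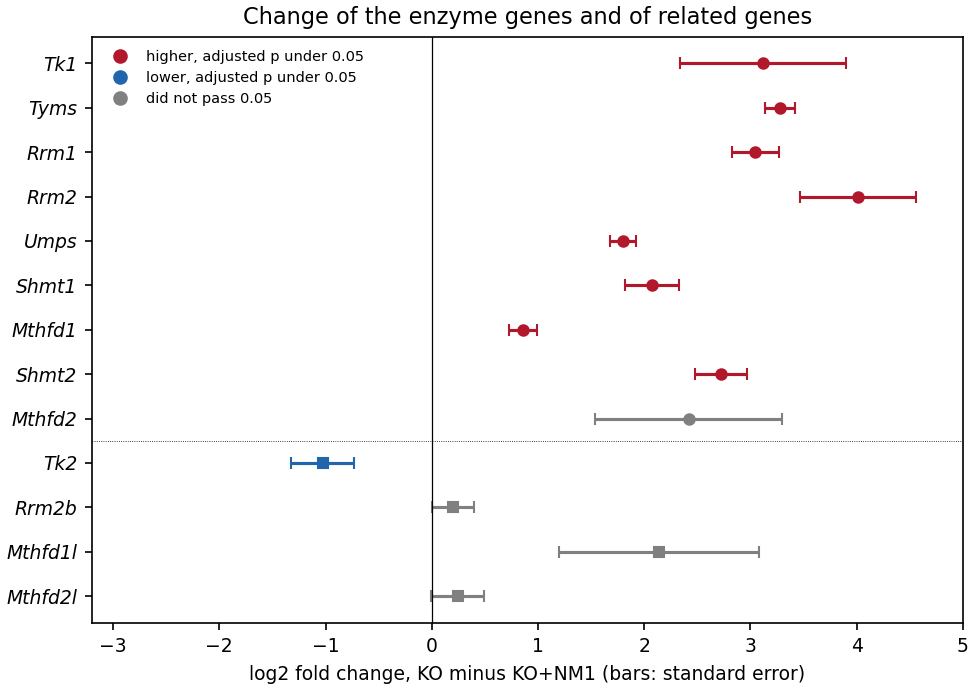
Log2 fold change (KO minus KO+NM1) with its standard error for the 9 genes above the dotted line and 4 related genes under it, colored by whether the edgeR adjusted p was under 0.05. The widest bars are those of Tk1, Mthfd2 and Mthfd1l, the genes that were 7.27 to 10.4 times higher in KO+NM1 piece 1 than in the mean of the other KO+NM1 pieces, and Tk2 is the only gene shown on the left of 0.

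The order of the 9 genes differed between the tumors. Levels were compared between genes as CPM per kilobase of exon, counting the merged exons of all annotated transcripts of a gene. That length was 11012 bases for Rrm1, 6089 for Tyms, 5198 for Tk1 and 2771 for Rrm2. The order therefore depends on the annotation and need not be the order of transcript numbers. In plain CPM the KO mean was 233 for Rrm1 and 83.0 for Rrm2. In the KO pieces Shmt2 came first at 92.0 ± 7.66 CPM per kilobase (SD, n = 3), followed by Rrm2 at 30.0 ± 1.81, and the ranges of both were apart from the next gene. Tk1 (26.3 ± 1.68), Mthfd2 (23.9 ± 3.43), Umps (23.4 ± 1.13), Rrm1 (21.1 ± 2.00), Shmt1 (20.7 ± 4.92) and Mthfd1 (18.2 ± 1.91) followed, each with a range that overlapped that of its neighbor in the order, and Tyms was last at 13.0 ± 1.28. In the KO+NM1 pieces Shmt2 was again first, at 13.9 ± 4.45 CPM per kilobase (SD, n = 4), with a range that overlapped that of Mthfd1 at 10.1 ± 0.835. Mthfd1 was apart from Umps at 6.70 ± 0.578, and from Umps down each gene overlapped its neighbor, through Shmt1 (4.93 ± 1.37), Mthfd2 (4.46 ± 6.02), Tk1 (3.02 ± 3.69), Rrm1 (2.56 ± 0.727) and Rrm2 (1.84 ± 1.59) to Tyms (1.34 ± 0.141). The lower places in the KO+NM1 order rested on piece 1. In pieces 2 to 4 Rrm2 was last, at 1.07, 0.981 and 1.10 CPM per kilobase, with Tyms at 1.48, 1.23 and 1.2, Tk1 at 1.10, 1.16 and 1.27 and Mthfd2 at 1.39, 1.52 and 1.44. In piece 1 Tyms was last at 1.43 CPM per kilobase, while Rrm2 had 4.23, Tk1 8.55 and Mthfd2 13.5.

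Pairs of subunits and isozymes were then compared as the log2 ratio of their read counts within each piece, which does not depend on how the libraries are scaled. For each of the 5 pairs the groups were compared with a two-sided exact permutation test over the 35 splits of the pieces, whose smallest possible p is 0.0286, and p-values were adjusted over the 5 ratios. Rrm2b, the small subunit of ribonucleotide reductase known for its induction by p53 and its use outside S phase, did not follow Rrm2. It had 27.8, 26.2 and 25.7 CPM in the KO pieces and 30.7, 19.2, 20.9 and 21.7 CPM in the KO+NM1 pieces, so the groups overlapped (log2 fold change 0.20, standard error 0.20, edgeR adjusted p = 0.429). The overlap came from KO+NM1 piece 1, as pieces 2 to 4 lay under every KO piece. Without piece 1 the log2 fold change was 0.24 (standard error 0.11, edgeR adjusted p = 0.0857). Rrm2b shares 734 exonic bases (8.04%) with the gene Gm49085 on the opposite strand. Transcripts of Gm8616 and Gm49085 match it at 95% identity or more over up to 1051 bases, and neither gene is in the count tables. The search covered both strands, so the match to Gm49085 can be the same shared bases. The counts of Rrm2b are less certain for these reasons. There were 3.18, 3.01 and 3.17 Rrm2 reads per Rrm2b read in the KO pieces and 0.381, 0.155, 0.131 and 0.141 in the KO+NM1 pieces. Per kilobase of exon the ratio was 9.92 to 10.5 in the KO pieces. It was 1.26 in KO+NM1 piece 1 and 0.432 to 0.512 in KO+NM1 pieces 2 to 4. By this measure, which rests on 2771 annotated exonic bases for Rrm2 and 9134 for Rrm2b, Rrm2 exceeded Rrm2b in piece 1 too. The log2 ratio differed by 4.10 (exact permutation test, p = 0.0286, adjusted to 0.0714).

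Mitochondrial thymidine kinase Tk2 moved against Tk1. It had 28.6, 27.2 and 27.6 CPM in the KO pieces and 93.2, 44.3, 46.2 and 43.0 CPM in the KO+NM1 pieces. The log2 fold change was -1.03 (standard error 0.30, edgeR adjusted p = 0.0279). This call was lost without KO piece 1, 2 or 3 (edgeR adjusted p = 0.0609, 0.0606 and 0.0641) and with library size as the only scaling (log2 fold change -0.88, edgeR adjusted p = 0.0904). There were 5.12, 4.77 and 4.83 Tk1 reads per Tk2 read in the KO pieces and 0.477, 0.129, 0.131 and 0.154 in the KO+NM1 pieces, a log2 difference of 4.71 (exact permutation test, p = 0.0286, adjusted to 0.0714). The ratio of Rrm2 to Rrm1 reads was 0.344, 0.364 and 0.365 in the KO pieces and 0.293, 0.126, 0.119 and 0.119 in the KO+NM1 pieces. The KO pieces lay above, by a smaller margin against piece 1, and the log2 difference was 1.24 (exact permutation test, p = 0.0571, adjusted to 0.0952).

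For the compartment pairs the groups overlapped. The ratio of Shmt1 to Shmt2 reads was 0.326, 0.261 and 0.249 in the KO pieces and 0.244, 0.428, 0.822 and 0.459 in the KO+NM1 pieces, a log2 difference of -0.69 (exact permutation test, p = 0.2, adjusted to 0.2). The ratio of Mthfd1 to Mthfd2 reads was 0.93, 1.11 and 0.897 in the KO pieces, 1.03 in KO+NM1 piece 1 and 8.99, 8.72 and 7.95 in KO+NM1 pieces 2 to 4. In this ratio KO+NM1 piece 1 lay among the KO pieces, and the log2 difference was -2.37 (exact permutation test, p = 0.0857, adjusted to 0.107). None of the 5 ratios passed 0.05 after adjustment, 2 of them being at the smallest p before it. With 35 splits and 5 ratios, these 2 could not pass unless further ratios also reached that p. Their adjusted p-values therefore do not show that the groups were alike.

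**Figure D3:**
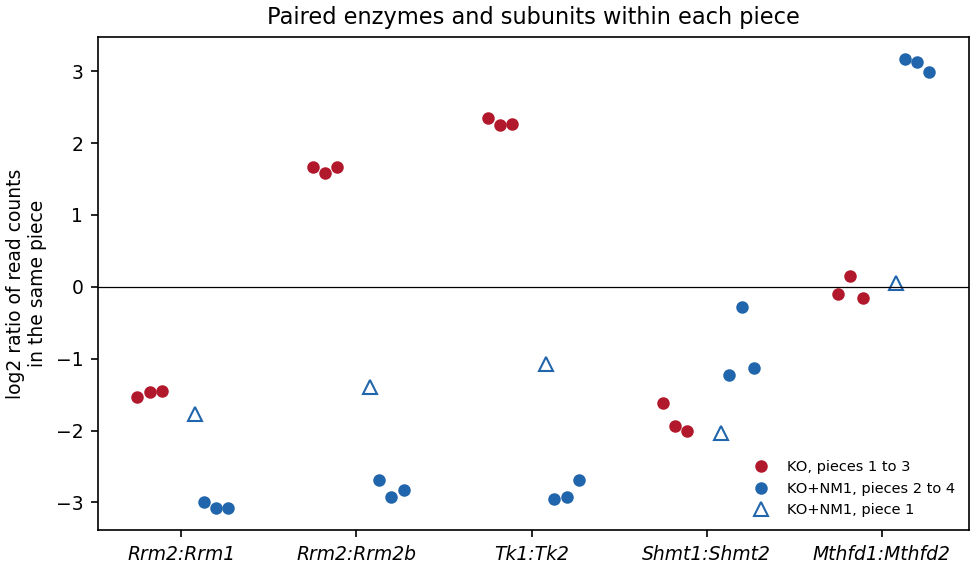
Log2 ratio of the read counts of paired genes within each piece, with KO pieces in red, KO+NM1 pieces 2 to 4 in blue and KO+NM1 piece 1 as an open triangle; 0 means equal counts. The groups are apart for Rrm2:Rrm1, Rrm2:Rrm2b and Tk1:Tk2, and the open triangle lies among or next to the KO pieces for Mthfd1:Mthfd2 (1.03 reads per read) and Shmt1:Shmt2 (0.244).

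Proliferation markers differed between the tumors in the same direction as the 9 genes. All 13 of these markers (Mki67, Top2a, Cdk1 and others) were called higher in the KO tumor. Their log2 fold changes had a median of 5.22 and ran from 1.85 for Pcna to 6.30 for Bub1. Their summed level was 2673 to 3352 CPM in the KO pieces, 290 CPM in KO+NM1 piece 1 and 85.7 to 117 CPM in KO+NM1 pieces 2 to 4. In KO+NM1 piece 1, Tk1, Rrm1, Rrm2, Shmt2, Mthfd1 and Mthfd2 lay above pieces 2 to 4. Tyms and Umps lay within their range and Shmt1 below it. Rrm2 was 4.02 times and Mki67 3.89 times the mean of pieces 2 to 4. The log2 fold changes of all 9 enzyme genes were under the median of the proliferation markers. The markers Pcna (1.85), Mcm5 (3.55) and Mcm2 (3.70) lay within the range of the 9 genes, 0.86 to 4.02. The part of the share of dividing cells in the changes of the 9 genes was not tested.

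The genes with the most similar pattern to each of the 9 were taken as those with the smallest root mean square (RMS) difference of log2 CPM over the 7 pieces, each gene centered on its mean. This is a description of 7 values that fall into 2 groups. Tyms was nearest to Arhgap19 and Cdc45 (RMS 0.137 to 0.193) once Gm19791 (RMS 0.112) was set aside, a gene with 17 to 20 counts in the KO pieces and 0 in all KO+NM1 pieces, whose log2 CPM was bounded by the prior count. Rrm2 was nearest to Il12rb1, Ercc6l and Mcm2 (RMS 0.104 to 0.15), and Rrm1 to Slc25a13, Rbl1 and Mtbp (0.137 to 0.152). Shmt2 was nearest to Prim2, Mcm7 and Myef2 (0.109 to 0.124). Of these near genes, Cdc45, Mcm2, Mcm7 and Prim2 encode parts of the DNA replication machinery. The near genes of the 9 were not sorted by function as a set, and the nearest to Rrm2 was Il12rb1. Tk1 was nearest to Usp44, 2700099C18Rik and Serpina3f (0.133 to 0.217), of which Usp44 had only 0 to 10 counts in the KO+NM1 pieces, and Mthfd2, which had the least similar neighbors, to Dclk2, Gpr65 and Cdt1 (0.235 to 0.251). Shmt1 was nearest to Lclat1, Ipo7 and Chst11 (0.165 to 0.179). The closest matches were those of Umps (Rhbdl3, Kars and Nutf2, 0.0331 to 0.0692) and of Mthfd1 (Cacul1, Nol12 and Polr2e, 0.0503 to 0.0584), the genes with the smallest changes.

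Other genes of nucleotide and one-carbon metabolism were examined in 9 groups. Of 82 genes listed, 81 were matched and 76 passed the filter on low counts, and Pnp was not matched while Dpys, Ftcd, Dmgdh, Bhmt and Bhmt2 were below the filter. Of the 76, 36 were called higher and 16 lower in the KO pieces, or 47.4% and 21.1% against 25.7% and 24.5% of all genes tested, and 24 did not pass. The share of lower genes was thus near that of all genes. Past 2-fold as well were 26 higher and 11 lower genes, where the shares of all genes were 17.1% and 20.3%. The groups are small, their counts are given as descriptions, and some of them, such as the folate group, were also near the shares of all genes. The median log2 fold change was 0.69. With library size as the only scaling 37 genes were higher and 9 lower, where 4659 and 3413 of all 16887 genes were. The count of lower genes in the list was 10, 9 and 10 without KO pieces 1, 2 and 3. It was 26 without KO+NM1 piece 1 and 10 without KO+NM1 piece 2. Lower calls over all genes moved in the same settings, to 3253, 3590 and 3256 without KO pieces 1, 2 and 3. They were 5980 of 16617 without KO+NM1 piece 1 and 3226 of 16547 without KO+NM1 piece 2. The list's count of lower genes past 2-fold was 7 without KO piece 1, 2 or 3.

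In de novo purine synthesis 10 of 14 genes were higher and 1 lower, with a median log2 fold change of 1.06. Among the 10 was Adssl1, with 24.9, 106 and 92.9 CPM in KO pieces 1 to 3 and 12.5 to 20.3 CPM in KO+NM1. The summed skeletal muscle markers were 2504, 19913 and 16072 CPM in KO pieces 1 to 3, and their part in this call was not tested. Pfas, which catalyzes a step in building the purine ring, rose most (log2 fold change 2.95, standard error 0.26, edgeR adjusted p = 0.00044), and Ppat, Gart, Paics, Adsl and Atic of the same pathway also rose. Impdh1 fell by 0.60 on the log2 scale (standard error 0.15, edgeR adjusted p = 0.0152), while its paralog Impdh2 rose by 1.30 (standard error 0.25, edgeR adjusted p = 0.0046). Of the 8 genes of pyrimidine synthesis other than Umps, 4 were higher and 2 lower (median 0.67). Cad, which carries out the first steps of the pathway that Umps completes, rose by 1.64 on the log2 scale (standard error 0.20, edgeR adjusted p = 0.0011), whereas Dhodh, the mitochondrial enzyme between them, had -0.39 (standard error 0.15, edgeR adjusted p = 0.0699). The CTP synthase gene Ctps rose most, by 2.17 (standard error 0.26, edgeR adjusted p = 0.00108), and its paralog Ctps2 fell by 0.55 (standard error 0.15, edgeR adjusted p = 0.0232).

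Among 8 genes of deoxynucleotide supply and removal 5 were higher and 0 lower (median 1.14), with the largest rise in Dctd, the dCMP deaminase that provides dUMP to Tyms (log2 fold change 3.88, standard error 0.20, edgeR adjusted p = 0.000194). Samhd1, which degrades deoxynucleotides, had 544 CPM in KO+NM1 piece 1 against a mean of 141 CPM in pieces 2 to 4 and at least 534 CPM in the KO pieces, and did not pass (edgeR adjusted p = 0.073). Salvage genes were split, with 5 of 10 higher and 4 lower (median -0.06). Upp1, uridine phosphorylase, rose by 2.98 (standard error 0.50, edgeR adjusted p = 0.00324), and Uck1, a uridine-cytidine kinase, fell by 2.01 on the log2 scale (standard error 0.41, edgeR adjusted p = 0.00798). Its paralog Uck2 rose by 2.09 (standard error 0.23, edgeR adjusted p = 0.000759). The mitochondrial deoxyguanosine kinase Dguok fell with Tk2, by 1.47 on the log2 scale (standard error 0.12, edgeR adjusted p = 0.000415). Of 8 breakdown genes 3 were higher and 3 lower (median -0.47). Dpyd, which starts the breakdown of pyrimidine bases, fell most, by 3.63 on the log2 scale (standard error 0.46, edgeR adjusted p = 0.00171), and urate oxidase Uox was called higher at 29 to 77 counts in the KO pieces and 5, 0, 0 and 0 counts in the KO+NM1 pieces.

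Of 13 genes of folate interconversion and uptake 4 were higher and 2 lower (median 0.24). Aldh1l1, a cytosolic enzyme that oxidizes formyl-folate, fell by 4.10 on the log2 scale (standard error 0.54, edgeR adjusted p = 0.00226), with 170 to 220 counts in the KO pieces and 746 to 3806 counts in the KO+NM1 pieces, whereas its mitochondrial paralog Aldh1l2 rose by 2.75 (standard error 0.27, edgeR adjusted p = 0.000613). For Mthfd2l, the paralog of Mthfd2, the log2 fold change was 0.24 (standard error 0.25, edgeR adjusted p = 0.441), with overlapping groups, and its sign turned without KO piece 1 (-0.011) or KO+NM1 piece 1 (-0.036). Of 5 glycine cleavage and related genes 0 were higher and 2 lower (median -0.87), and Dld, shared with other mitochondrial dehydrogenases, fell by 1.51 on the log2 scale (standard error 0.40, edgeR adjusted p = 0.0205). The methionine cycle had 3 of 7 genes higher and 2 lower (median -0.12). Ahcy was highest in change (2.63, standard error 0.35, edgeR adjusted p = 0.0014), a value that is uncertain because Gm4737 and Gm9826 match its transcript over up to 2083 bases. Shorter matches of 243 to 332 bases to a gene in the files touch Ctps, Mthfd2l and Aldh1l1. Gnmt fell by 1.42 on the log2 scale (standard error 0.36, edgeR adjusted p = 0.0152). Of the 3 genes that make serine, Psat1 rose by 1.90 (standard error 0.36, edgeR adjusted p = 0.00458) and Phgdh by 0.98 (standard error 0.24, edgeR adjusted p = 0.0139), and Psph had 0.69 (standard error 0.25, edgeR adjusted p = 0.054). The white adipocyte markers were higher in the KO+NM1 pieces, the group in which Aldh1l1, Dpyd and Dld were higher, and their part in these differences was not tested.

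**Figure D4:**
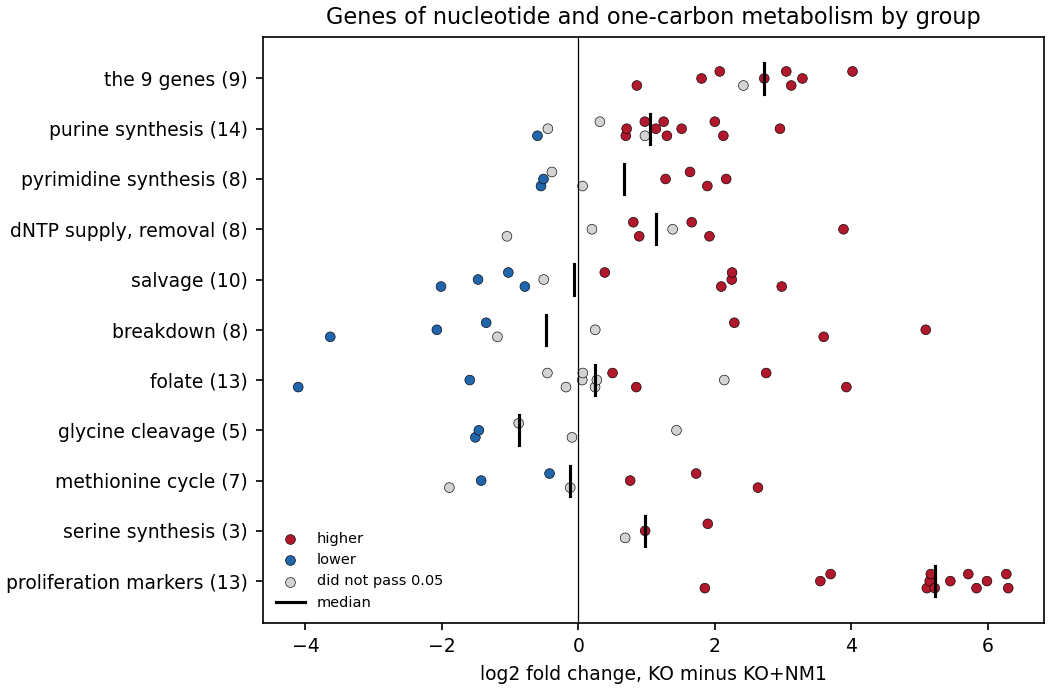
Log2 fold change (KO minus KO+NM1) of each tested gene in the 9 groups of nucleotide and one-carbon metabolism, with the 9 enzyme genes at the top and 13 proliferation markers at the bottom; the number of tested genes is in parentheses, colors give the edgeR call and black bars the medians. The 9 genes (median 2.72) lie on the right of 0, purine synthesis has a median of 1.06, salvage and breakdown have genes on both sides, and the proliferation markers (median 5.22) lie farthest right.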

How the data were processed

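Total RNA of 3 KO and 4 KO+NM1 tumor pieces was sequenced on NextSeq after NEBNext Ultra II library preparation. Per the submitters' processing notes and the study's methods, Trimmomatic 0.36 was used for trimming, FastQC for quality, HISAT2 2.0.4 for alignment of read pairs to GRCm38, SAMtools 0.1.19 for sorting and HTSeq for counting. The values deposited by the authors are raw counts per Ensembl gene, without normalization. The annotation release and strand option are not given in the sources used here. Symbols, coordinates and exon lengths came from GENCODE M21, which held 46091 of the 46603 genes, and promoters from RefSeq.

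Counts were filtered with filterByExpr (minimum count 10), scaled by TMM and compared, KO minus KO+NM1, with the quasi-likelihood test of edgeR 4.0.16 in R 4.3.3, with Benjamini-Hochberg adjustment over 16887 genes. Calls used an adjusted p of 0.05, alone and with a 2-fold change. Log2 CPM used a prior count of 2 and read ratios a pseudocount of 0.5. No 2 libraries of a group were repeats (chi-square per degree of freedom 35.2 to 687). At this depth the 9 genes had 55 to 9409 counts per piece.

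The members and gene lists were chosen with earlier results of these data known. Named genes were the 9 members, Myo1c, Mki67, the paralogs Tk2, Rrm2b, Mthfd1l and Mthfd2l, the largest rise and fall of each group and the 3 nearest genes in pattern; other genes were named after their values were seen. A gene that the rule names is not reported here. Alternatives were edgeR's RLE scaling, library size alone, mitochondrial genes left out, other filters, the Wald test of DESeq2 1.42.0, the replicate number as a block, another pseudocount and each library left out. The other data of the study were not analysed here.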

Additional observations from a re-analysis of the deposited data

Results flagged for a closer look

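Among the 4 KO+NM1 pieces, 22 values were examined for a piece far from the others with Dixon's ratio, its distance to the next piece as a share of the full range. Of these, 8 passed the 95% critical value for 4 samples, each time through piece 1. The ratio was 0.962 for Mthfd2, 0.927 for Tk1, 0.924 for Rrm2 and 0.908 for Tk2 in log2 CPM. Among the read ratios it was 0.943 for Mthfd1:Mthfd2, 0.936 for Rrm2:Rrm1, 0.862 for Tk1:Tk2 and 0.841 for Rrm2:Rrm2b. Chance puts about 1 in 20 such groups past this value, and the values share genes and libraries. Tyms, Umps, Shmt1, Shmt2, Rrm1 and Mthfd1 were not past it. The KO group, with 3 pieces, was not tested in this way.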

How the results depend on the processing

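The 9 genes kept a positive log2 fold change in all 14 alternative settings, with 7 to 9 called higher and 0 lower. Over all genes tested 2910 to 5957 were called higher in these settings. Only Tk1 (lost without KO piece 1) and Mthfd2 changed sides of the threshold; Mthfd2 passed with DESeq2 (adjusted p = 0.0124), with the replicate block (edgeR adjusted p = 0.0489) and without KO+NM1 piece 1. The median of all genes tested moved from -0.0017 to -0.10 with RLE scaling and to 0.17 with library size alone, where the median of the 9 genes was 2.63 and 2.87. Of the pathway list, 9 genes were lower with library size alone, where 3413 of all genes were. With the replicate block 5 were lower, all 5 past 2-fold, and 29 higher. The cause was not tested. With each library left out in turn 9 to 26 genes of the list were lower, and 7 to 13 past 2-fold. Over all genes tested 3226 to 5980 were then lower. The log2 fold change of Mthfd2l turned to -0.011 without KO piece 1 and to -0.036 without KO+NM1 piece 1, and was up to 0.31 with another library left out. With the replicate block Tk2 and Myo1c did not pass (edgeR adjusted p = 0.0515 and 0.126). The replicate numbers do not pair the pieces: same-numbered pieces had correlations of deviations from the group means of 0.080, 0.10 and -0.017, and not every piece correlated best with its own number. The block, in which KO+NM1 piece 4 has no partner, called 3019 genes higher and 2680 lower, against 4345 and 4132 without it. No ratio passed 0.05 after adjustment in any setting, and all 5 kept their direction; with a library left out the smallest p the splits allow is above 0.05, so these p-values say nothing of stability.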
